A study of Mus musculus with 4 samples.

Results

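The circadian clock genes are 10 genes, Clock, Per1, Per2, Per3, Cry1, Cry2, Nr1d1, Nr1d2, Dbp and Tef, taken by gene symbol from a table that names 17849 genes. All 10 were present. They held 43 of the 69391 entries of the table, each entry a cluster of transcription starts, and 26596 tags over 4 libraries. The values come from cap analysis of gene expression (CAGE), which sequences short tags from the capped 5′ end of RNA, so each tag points to a place where transcription began, and long transcripts give no more tags than short ones. The 4 libraries were made from lesional facial skin of C57BL/6 mice at postnatal day 28, of 1 genotype, Nectin-cre(+);Ikk2FL/FL;Postn-/-. In this genotype a Cre transgene, whose promoter the labels spell Nectin, acts on floxed alleles of Ikk2 (the kinase gene Ikbkb), and the matrix protein gene Postn is deleted on both alleles. The labels hold no second group, so every library carries all 3 alterations and no library serves as a control. Whether the skins came from separate animals is not stated; a p-value here therefore reflects the spread of these 4 samples alone, and that spread may be technical. No source used here gives the time of day at which skin was taken.

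The mammalian clock is a loop of transcription. CLOCK pairs with BMAL1, the product of Arntl, and the pair binds E-boxes and activates the Per and Cry genes, whose proteins return to inhibit it. The same pair activates Nr1d1 and Nr1d2, which encode the REV-ERB repressors of Arntl, and Dbp and Tef, which encode activators that bind D-boxes together with HLF; NFIL3 is a repressor at the same D-boxes. In skin the loop runs in keratinocytes, hair follicles and fibroblasts, and through it the levels of Dbp, Nr1d1 and Per3 swing strongly over a day while that of Clock changes little.

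Libraries are named 1 to 4 as in the sample titles. The sample codes of libraries 1 and 2 share their first part, and so do those of libraries 3 and 4; the letter R closes the codes of libraries 2 and 4, and the letter L those of libraries 1 and 3. The labels do not say what either part means, so these pairs are no groups of the study: their values, means and folds are set side by side as a description, and no test was run between them. The entries summed to 18179860, 18823630, 17630119 and 17939565 tags in libraries 1 to 4, so that 1 tag was worth 0.0531 to 0.0567 CPM, the unit of the table, in which tags are scaled to a common library total. Libraries 3 and 4 stood apart from 1 and 2 across the table. By deposited CPM the median gene was higher in libraries 3 and 4 by 0.11 on the log2 scale. Scaling by the trimmed mean of M values (TMM) brought this shift to -0.01. After that scaling, 54.8% of 14732 genes still had no overlap between libraries 3 and 4 and libraries 1 and 2. Bulk skin holds many cell types, and fewer cells of a type and less RNA per cell cannot be told apart in it.

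The promoter windows of clock genes that held an E-box or a D-box are given first, together with the window of Dbp. RefSeq windows on GRCm38.p6, from 250 bases before to 50 bases after an annotated start, were held for 9 of the 10 genes in 13 windows. The lines below give, 5′ to 3′ in the direction of transcription, the window of Dbp (chr7:45704997-45705296, plus strand), the window of Per3 (chr4:151044616-151044915, minus strand), the upstream and downstream windows of Tef (chr15:81802423-81802722 and chr15:81811164-81811463, plus strand), the window of Cry1 (chr10:85185005-85185304, minus strand) and the window of Per1 at its middle start site (chr11:69098699-69098998, plus strand). Capitals mark an E-box (CACGTG) or a D-box (TTATGTAA or TTACGTAA) found on either strand.
Dbp: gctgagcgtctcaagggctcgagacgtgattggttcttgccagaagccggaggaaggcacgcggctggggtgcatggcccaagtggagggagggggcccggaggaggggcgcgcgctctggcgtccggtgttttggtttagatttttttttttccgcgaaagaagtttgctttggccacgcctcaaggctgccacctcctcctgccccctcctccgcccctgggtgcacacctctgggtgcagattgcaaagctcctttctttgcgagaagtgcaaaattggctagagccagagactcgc
Per3: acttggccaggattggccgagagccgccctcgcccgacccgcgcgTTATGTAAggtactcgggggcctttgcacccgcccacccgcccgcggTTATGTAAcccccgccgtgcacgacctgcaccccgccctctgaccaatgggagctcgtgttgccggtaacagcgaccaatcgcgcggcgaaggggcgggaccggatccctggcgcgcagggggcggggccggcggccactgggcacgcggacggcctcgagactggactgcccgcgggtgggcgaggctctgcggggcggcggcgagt
Tef upstream: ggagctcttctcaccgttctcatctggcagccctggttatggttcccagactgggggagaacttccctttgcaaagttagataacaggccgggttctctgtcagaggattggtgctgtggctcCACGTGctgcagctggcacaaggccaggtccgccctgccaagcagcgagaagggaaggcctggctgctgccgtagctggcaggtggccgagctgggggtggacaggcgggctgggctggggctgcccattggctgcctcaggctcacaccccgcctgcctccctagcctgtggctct
Tef downstream: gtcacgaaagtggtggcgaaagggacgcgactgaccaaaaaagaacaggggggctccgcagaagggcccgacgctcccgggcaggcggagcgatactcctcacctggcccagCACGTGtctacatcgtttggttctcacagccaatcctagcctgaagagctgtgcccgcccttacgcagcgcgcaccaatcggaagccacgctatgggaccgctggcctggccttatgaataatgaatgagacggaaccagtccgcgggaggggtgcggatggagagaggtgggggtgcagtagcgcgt
Cry1: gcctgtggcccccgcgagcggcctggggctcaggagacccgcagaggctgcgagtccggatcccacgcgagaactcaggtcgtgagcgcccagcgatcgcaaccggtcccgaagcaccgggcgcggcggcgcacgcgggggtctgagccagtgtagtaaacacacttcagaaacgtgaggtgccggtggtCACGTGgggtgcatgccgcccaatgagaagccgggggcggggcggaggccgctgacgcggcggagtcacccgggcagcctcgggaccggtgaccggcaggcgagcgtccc
Per1 middle: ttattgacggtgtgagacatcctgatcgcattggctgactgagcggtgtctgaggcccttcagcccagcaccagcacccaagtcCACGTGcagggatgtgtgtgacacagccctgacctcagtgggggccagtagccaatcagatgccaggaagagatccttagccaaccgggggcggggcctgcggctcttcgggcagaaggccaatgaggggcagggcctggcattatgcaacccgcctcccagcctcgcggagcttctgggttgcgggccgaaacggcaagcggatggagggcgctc

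Per3 carried 2 copies of the D-box, which end 142 and 95 bp before its cluster of starts. E-boxes lay 20 bp before the cluster of Cry1, 131 bp before the middle cluster of Per1, and 145 and 97 bp before the upstream and downstream clusters of Tef. Over all 32851 windows in the RefSeq table, 7.15% held the E-box and 1.06% the D-box, against 4 and 1 of the 13 clock gene windows. Neither box was found in the windows of Dbp, Nr1d1, Nr1d2, Cry2 and Clock or in the remaining window of Per1. That Per1 window and a Clock window (chr5:76303453-76303752) overlapped no main cluster. The most used and the 5′-most clusters of Per1, with 50.2% and 34.7% of its tags, lay in no window, so the sequence there was not searched. Per2 was the gene without a window. The ROR element (the half-site AGGTCA behind an A- and T-rich flank), which REV-ERB and ROR proteins bind, was in none of the 13 windows and in 0.219% of all, and a longer form of it was in none of the 13 and in 0.180% of all. The cAMP response element TGACGTCA was in none of the 13 and in 1.79% of all. A match is a run of letters in the window, and it does not show binding.

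Clock gene transcripts started mostly at annotated promoters. Of the 43 clusters, 17 held at least 5% of the tags of their gene, and these main clusters took 98.3% of all clock gene tags; 15 of the 17 spanned an annotated GENCODE start of the gene. Main clusters were between 9 and 198 bp wide. Per2, Cry1 and Cry2 had 1 cluster each, and Per3, Nr1d1 and Nr1d2 had 1 main cluster that held 99.9%, 94.2% and 99.6% of their tags. Per1, Clock, Dbp and Tef used several. Coordinates are those deposited, which fit GRCm38 with the position uncertain by 1 bp.

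Per1, which encodes a period repressor that hormones and other signals can induce quickly, had 3 start sites, all of them at annotated starts. The most used was a narrow cluster of 9 bp on the plus strand (chr11:69100506-69100514), in a noncoding part of an exon, which spans the annotated start of a transcript of the nonsense-mediated decay class. It took 49.1% and 46.4% of Per1 tags in libraries 3 and 4, and 53.0% and 52.0% in libraries 1 and 2. The broad 5′-most cluster of 197 bp (chr11:69095101-69095297) took 35.4% and 37.3% in libraries 3 and 4, and 32.4% and 33.7% in libraries 1 and 2. The middle cluster (chr11:69098919-69098980), whose window is printed above with its E-box, held the rest, 14.3% to 16.3%. The order of the 3 sites was the same in all 4 libraries.

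Tef, which encodes the thyrotroph embryonic factor, a D-box activator, had its main cluster in the noncoding part of an exon on the plus strand (chr15:81811378-81811567) at 57.3 ± 9.42 CPM (SD, n = 4). A second cluster near the 5′ end of the gene (chr15:81802696-81802806), which overlaps coding sequence of an annotated transcript, stood at 6.17 ± 2.78 CPM. By deposited CPM the second cluster was at 8.96 and 8.14 in libraries 3 and 4, against 3.58 and 3.98 in libraries 1 and 2. Its share of Tef tags was 12.1% and 10.6% in libraries 3 and 4, against 5.96% and 7.85% in libraries 1 and 2. With TMM scaling the upstream cluster was 2.08-fold higher in libraries 3 and 4 and the main cluster 1.19-fold higher, so the upstream site differed more between the pairs.

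Dbp, which encodes the D-box binding protein of albumin promoters, showed the reverse arrangement. Its main cluster (chr7:45705193-45705379, plus strand, noncoding part of an exon) stood at 15.5 and 15.6 CPM in libraries 3 and 4, against 7.04 and 5.21 CPM in libraries 1 and 2. A smaller cluster just upstream (chr7:45705033-45705102), which spans another annotated start, stood at 1.305 and 1.39 CPM in libraries 3 and 4, against 1.71 and 1.17 CPM in libraries 1 and 2, so the pairs overlapped there. The upstream share was therefore 7.08% and 7.42% in libraries 3 and 4, with exact 95% binomial intervals of 4.54% to 10.4% and 4.86% to 10.8%. In libraries 1 and 2 it was 17.3% and 16.4%, with intervals of 12.1% to 23.7% and 10.6% to 23.8%. These intervals cover counting error only. The last main cluster of Dbp (chr7:45707903-45707943) began 14 bp downstream of the annotated start of a retained-intron transcript and held 5.13% of the tags.

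Clock, which encodes the positive partner of BMAL1, started at 3 main clusters close together on the minus strand. The middle one (chr5:76304713-76304816) spans an annotated start and took 45.7% of Clock tags over all libraries. The one furthest upstream (chr5:76304959-76305025) took 33.5% and lay 167 bp before the nearest annotated start, outside the annotated gene. The one furthest downstream (chr5:76304481-76304586) took 16.5%. Shares moved little: the middle cluster held 43.7% and 48.8% in libraries 3 and 4, and 45.2% and 45.6% in libraries 1 and 2.

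**Figure D1:**
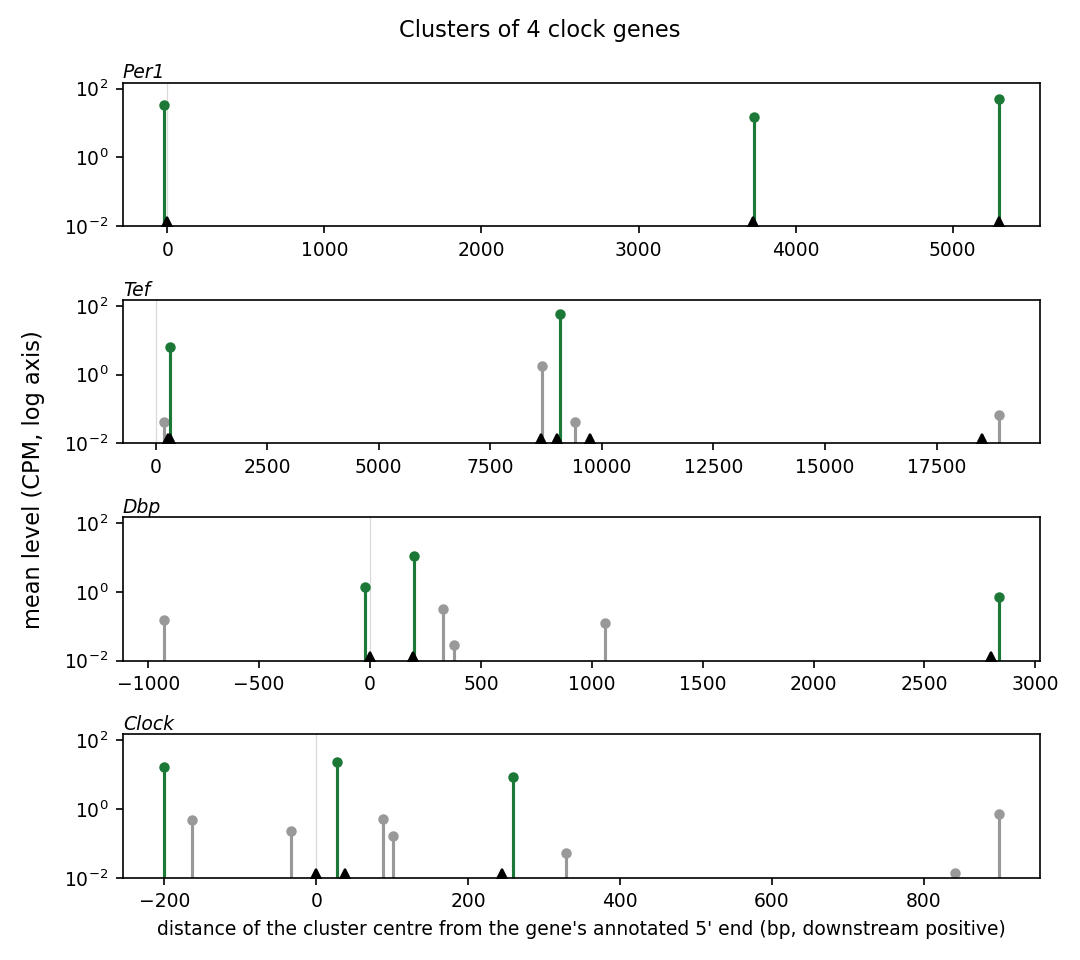
Start-site clusters of Per1, Tef, Dbp and Clock. The horizontal axis is the distance of the cluster centre from the annotated 5′ end of the gene in bp and the vertical axis the mean CPM of 4 libraries on a log scale; green stems are clusters with at least 5% of the gene's tags, grey stems the others, and black triangles the annotated starts nearest to a cluster. Per1 has 3 high stems, the furthest downstream being the tallest, while Tef and Dbp each have 1 stem far above the rest.

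Whether promoter shares varied between libraries more than in other genes was tested with limma on the log2 ratio of the most used cluster to the rest, in all 6358 genes whose second cluster held at least 20 tags; 5 clock genes qualified. None was called (Benjamini-Hochberg adjusted p under 0.05), where 0.346% of the genes tested were. Tef (adjusted p = 0.845, unadjusted p = 0.0322, limma) and Dbp (adjusted p = 0.879, unadjusted p = 0.0413, limma) had unadjusted p under 0.05, as did 5.55% of the genes tested. The range of the log2 ratio, 1.06 in Dbp, was 0.40 with clusters joined over gaps of at most 200 bp (limma adjusted p = 0.997), and that of Tef, 0.91, was 0.54 without library 1 (limma adjusted p = 0.995). Per1, Clock and Nr1d1 had unadjusted p of 0.137, 0.476 and 0.639 in the same limma fit. A chi-square test of the tags, which takes counting as the only error, called Tef (adjusted p = 0.000195), Per1 (adjusted p = 0.00656) and Dbp (adjusted p = 0.00967), where it called 11.1% of the genes tested. The shares of these 3 genes thus differed between the libraries by more than counting error, while against the spread of other genes the difference did not pass the threshold.

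**Figure D2:**
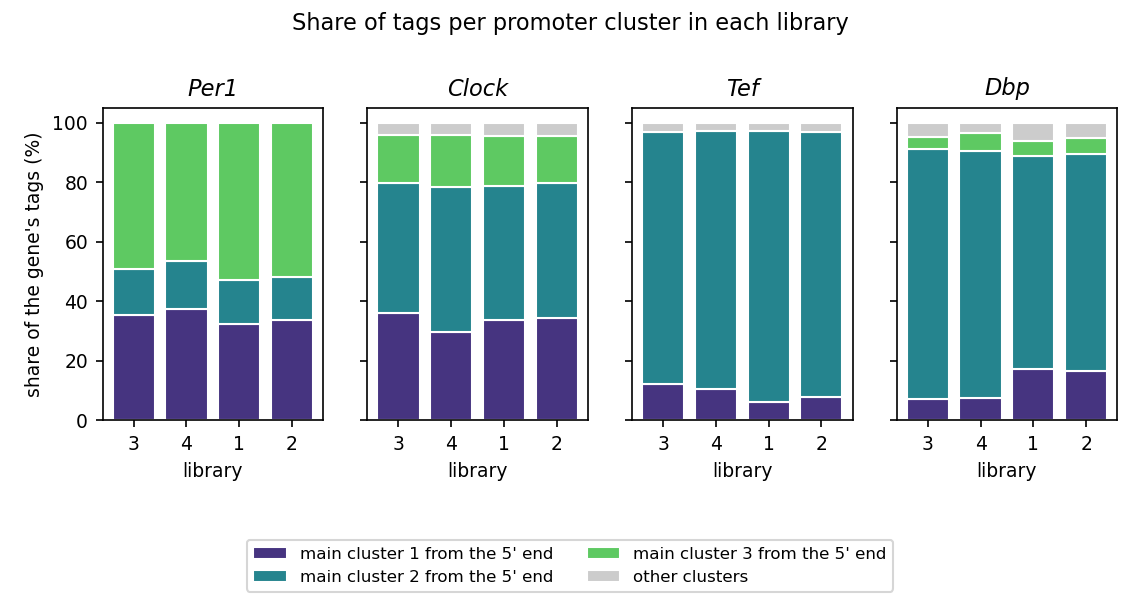
Share of each gene's tags (%, vertical axis) in its main clusters, numbered from the 5′ end, and in all other clusters, for libraries 3, 4, 1 and 2. The upstream part of the Dbp bars is 7.08% and 7.42% in libraries 3 and 4 and 17.3% and 16.4% in libraries 1 and 2, while that of Tef is 12.1% and 10.6% against 5.96% and 7.85%.

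By level, the clock genes ranged from Per1 at 96.3 ± 2.92 CPM (SD, n = 4), above 89.0% of the 17037 genes kept, to Per2 at 10.3 ± 0.977 CPM, above 39.9%. Between them came Tef at 65.4 ± 12.2, Clock at 51.3 ± 8.68, Nr1d2 at 39.8 ± 9.10, Per3 at 28.4 ± 8.63, Nr1d1 at 25.7 ± 6.61, Cry1 at 21.1 ± 1.80, Cry2 at 15.5 ± 1.60 and Dbp at 13.5 ± 5.95 CPM. Only the steps from Per1 to Tef and from Cry1 to Cry2 had ranges over libraries that did not overlap. In the other 7 steps between neighbours the ranges overlapped, although Tef over Clock, Clock over Nr1d2 and Nr1d2 over Per3 had the same direction in 4 of 4 libraries. The place of Dbp was not fixed: it stood above Cry2 and Per2 in libraries 3 and 4 and below both in libraries 1 and 2.

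**Figure D3:**
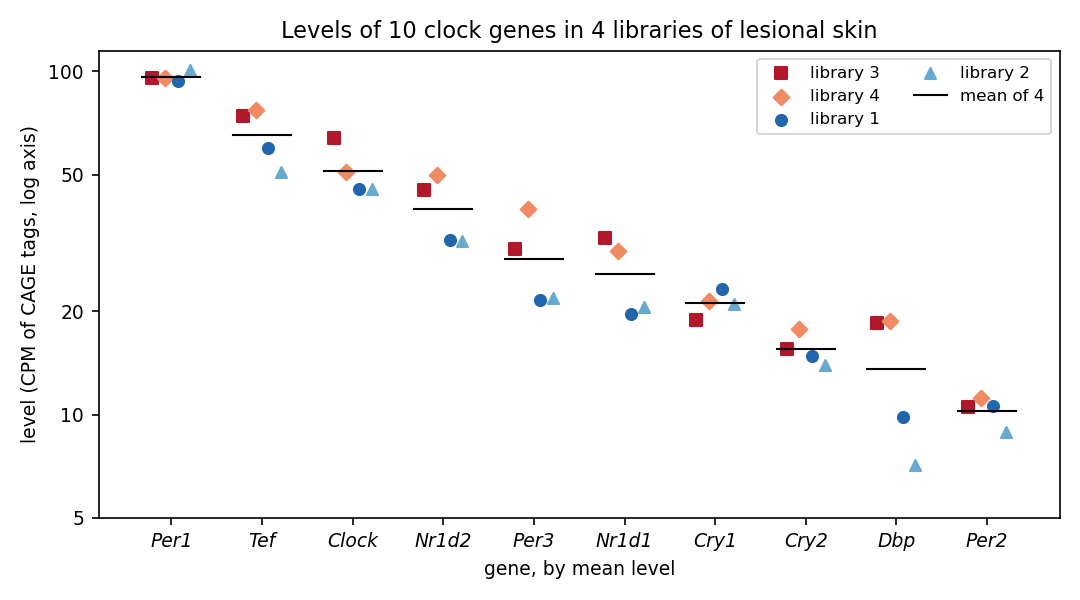
CPM of the 10 clock genes (vertical log axis) by gene in order of mean level, with 1 point per library and a line at the mean of 4 libraries. Per1 lies between 93.8 and 101 CPM in every library, while Dbp is at 18.4 and 18.8 CPM in libraries 3 and 4 and at 9.85 and 7.12 CPM in libraries 1 and 2.

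The D-box activators and the REV-ERB genes all stood higher in libraries 3 and 4. Dbp stood at 18.4 and 18.8 CPM (325 and 337 tags) in libraries 3 and 4, against 9.85 and 7.12 CPM (179 and 134 tags) in libraries 1 and 2. These pairs did not overlap, and the mean of libraries 3 and 4 was 2.03-fold that of 1 and 2 after TMM scaling. Tef stood at 74.0 and 76.9 CPM in libraries 3 and 4, against 60.0 and 50.8 CPM in libraries 1 and 2, 1.26-fold higher. Nr1d1, the gene of REV-ERBα, stood at 32.7 and 29.9 CPM in libraries 3 and 4, against 19.6 and 20.5 CPM in libraries 1 and 2, 1.44-fold higher. Its paralog Nr1d2, the gene of REV-ERBβ, was at 45.2 and 49.8 CPM in libraries 3 and 4, against 32.3 and 31.9 CPM in libraries 1 and 2, 1.36-fold higher. In each of these genes both values of libraries 3 and 4 lay above both of libraries 1 and 2. The same held for 45.6% of all genes tested by deposited CPM and for 26.3% after TMM scaling.

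The period genes did not all show the same order of the pairs of libraries, which is a description without a test. Per3, a period gene whose loss leaves the core rhythm largely intact in mice, stood at 30.4 and 39.7 CPM in libraries 3 and 4, against 21.6 and 21.8 CPM in libraries 1 and 2, 1.49-fold higher after TMM scaling. Per2, a core repressor, stood at 10.5 and 11.1 CPM in libraries 3 and 4, against 10.6 and 8.87 CPM in libraries 1 and 2, with overlapping pairs and a ratio of 1.03. Per1 stood at 95.3 CPM in both libraries 3 and 4, against 93.8 and 101 CPM in libraries 1 and 2. Its deposited CPM overlapped, while after TMM scaling libraries 3 and 4 lay below 1 and 2, at 0.901 of their mean. The pairs of Per1 were thus apart with TMM scaling alone, and those of Per3 on both scales.

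The cryptochromes encode the repressors that act with the period proteins. Cry1 stood at 18.8 and 21.4 CPM in libraries 3 and 4, against 23.2 and 21.04 CPM in libraries 1 and 2; the pairs overlapped in deposited CPM, and after TMM scaling libraries 3 and 4 were the lower, at 0.837 of libraries 1 and 2. Cry2 stood at 15.5 and 17.7 CPM in libraries 3 and 4, against 14.9 and 13.97 CPM in libraries 1 and 2, with overlap after TMM scaling. Clock stood at 63.8 and 50.9 CPM in libraries 3 and 4, against 45.3 and 45.4 CPM in libraries 1 and 2. Library 3 was the highest of the 4. After TMM scaling the pairs of Clock overlapped narrowly, with library 4 at 48.74 and library 2 at 48.77 CPM.

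In all, 5 of the 10 clock genes (Dbp, Per3, Nr1d1, Nr1d2 and Tef) were higher in libraries 3 and 4 without overlap after TMM scaling and 2 (Per1 and Cry1) were lower. Over the 14732 genes tested these shares were 26.3% and 28.6%, so that 54.8% of all genes had no overlap between the pairs. With deposited CPM, 7 clock genes were higher, adding Clock and Cry2, and none lower, against 45.6% and 11.5% of all genes (57.1% in either direction). With a minimum of 1.2-fold, a bound chosen after the values were seen, 5 were higher and none lower, against 14.8% and 10.3% of all genes; Tef lay just inside that bound at 1.26-fold, while Clock at 1.16-fold (overlapping) and Cry1 at 0.837-fold lay just outside it. Between libraries 2 and 4 and libraries 1 and 3, split by the last letter of the code, no clock gene was without overlap on either scale. Of all genes, 12.2% were higher and 10.2% lower there after TMM scaling (22.4% in either direction), and 6.08% and 13.8% by deposited CPM (19.9% in either direction).

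**Figure D4:**
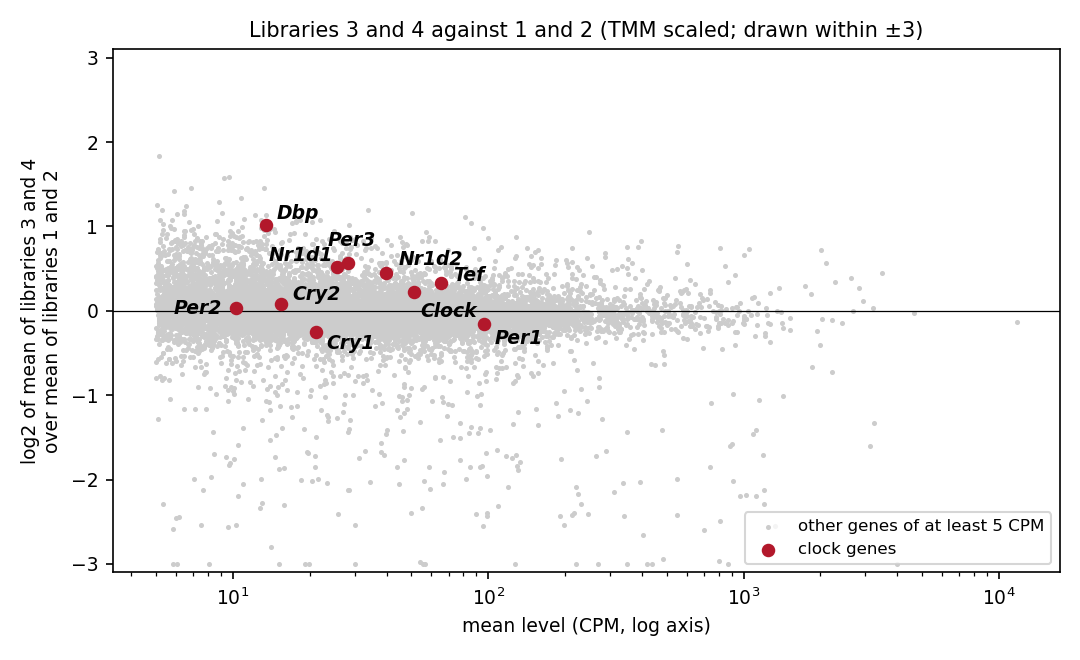
Log2 of the mean of libraries 3 and 4 over the mean of libraries 1 and 2 (vertical axis, TMM scaled, drawn within 3 in either direction) against mean CPM (log axis) for genes of at least 5 CPM, with clock genes in red. Dbp lies at 1.02, the highest of the clock genes, Per3, Nr1d1, Nr1d2 and Tef lie between 0.33 and 0.57, and Cry1 lies at -0.26.

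The test of spread asked whether a gene differed between the 4 libraries by more than genes of its level do (limma on log2(CPM + 1), TMM scaled, one-sided, genes of at least 1 CPM on average). It called 0 of the 10 clock genes at a Benjamini-Hochberg adjusted p under 0.05, where it called 0.380% of the 14732 genes; edgeR on the recovered tags also called 0. Dbp had the widest range, 1.13 on this log2 scale (limma adjusted p = 0.536, unadjusted p = 0.0149), followed by Per3 at 0.77 (adjusted p = 0.722, unadjusted p = 0.0322), Nr1d1 at 0.64 (adjusted p = 0.807, unadjusted p = 0.0545) and Nr1d2 at 0.53 (adjusted p = 0.832, unadjusted p = 0.0636). The place of Per3 rested on library 4, without which its range was 0.40, below that of Nr1d1. Dbp and Per3 were the 2 clock genes with an unadjusted p under 0.05, which 6.27% of all genes had, in limma and in edgeR alike. Per2 had the narrowest range, 0.15, and Cry2 the next, 0.18. The median range of the 10 genes was 0.42, against 0.28 for all genes tested. A p that misses the threshold does not show that the levels were equal.

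The balance between clock genes was read as ratios of tags within a library, which no scaling affects. Of 15 ratios, 11 did not overlap between libraries 3 and 4 and libraries 1 and 2, and in 5 the exact 95% counting intervals were also apart. The ratios were chosen and share genes, and of single genes 54.8% already had no overlap between these pairs, so the count of 11 is not read as a result. All 5 had Dbp or Nr1d1 on top: Dbp over Tef, Dbp over Cry1, Dbp over Nfil3, Nr1d1 over Cry1 and Nr1d1 over Arntl. Most of the chosen ratios had Dbp or Nr1d1 on top, and both genes alone already had no overlap between these pairs. What the 5 ratios have in common is therefore not read as a result either, and no share over other ratios was computed. These 5 ratios are a description with no p, and an exact sign-flip test over 4 libraries could not go below 0.125 (two-sided).

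Dbp over Nfil3, the activator over the repressor of the same D-box, showed the widest shift. The ratio was 1.12 and 1.23 in libraries 3 and 4, with intervals of 0.950 to 1.31 and 1.05 to 1.45, against 0.491 and 0.367 in libraries 1 and 2, with intervals of 0.408 to 0.588 and 0.298 to 0.447. Nr1d1 over Arntl, the repressor gene over its target, was 1.38 and 1.29 in libraries 3 and 4, against 0.897 and 0.827 in libraries 1 and 2. It thus lay above 1 in libraries 3 and 4 and below it in libraries 1 and 2, although the interval of library 1, 0.775 to 1.04, included 1. Nr1d1 over Cry1 was 1.73 and 1.40 in libraries 3 and 4, against 0.844 and 0.975 in libraries 1 and 2. Nr1d1 over Nr1d2 had the narrowest range of the 15 ratios and was 0.723 and 0.601 in libraries 3 and 4, against 0.607 and 0.643 in libraries 1 and 2. Per3 over Per2, also paralogs, was 2.89 and 3.56 in libraries 3 and 4, against 2.04 and 2.45 in libraries 1 and 2, and Cry1 over Cry2 was 1.22 and 1.21 in libraries 3 and 4, against 1.56 and 1.505 in libraries 1 and 2. Dbp over Tef, both D-box activators, was 0.2495 and 0.245 in libraries 3 and 4, against 0.165 and 0.141 in libraries 1 and 2.

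Of 11 clock partner genes, 10 were tested. Hlf, which encodes the D-box activator related to DBP and TEF, stood at 28.5 and 30.1 CPM in libraries 3 and 4, against 16.6 and 20.2 CPM in libraries 1 and 2, 1.46-fold higher after TMM scaling and without overlap. Nfil3, the D-box repressor, stood at 16.5 and 15.2 CPM in libraries 3 and 4, against 20.1 and 19.4 CPM in libraries 1 and 2, at 0.738 of their mean and without overlap. Arntl, the gene of BMAL1, stood at 23.6 and 23.1 CPM in libraries 3 and 4, against 21.8 and 24.8 CPM in libraries 1 and 2, with overlap. Npas2, whose product can take the place of CLOCK, stood at 5.33 and 4.46 CPM in libraries 3 and 4, against 5.34 and 3.72 CPM in libraries 1 and 2, also with overlap. Of the 10 partners, 4 were higher in libraries 3 and 4 without overlap after TMM scaling (Arntl2, Hlf, Bhlhe41 and Ciart) and 1 was lower, against 26.3% and 28.6% of all genes, and none was called by the limma test of spread. By deposited CPM 7 were higher and 1 lower, against 45.6% and 11.5% of all genes. The median range of the partners was 0.25, below the 0.28 of all genes.

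Among 7 tested genes of the kinases and ligases that set the stability of clock proteins, 1 was higher and 4 were lower in libraries 3 and 4 without overlap after TMM scaling, where 26.3% of all genes were higher and 28.6% lower; the same shares stand beside the counts of the next lists. The widest range was that of Csnk1e, a casein kinase that phosphorylates the period proteins, at 126 and 136 CPM in libraries 3 and 4, against 192 and 156 CPM in libraries 1 and 2 (range 0.68, limma adjusted p = 0.710). Btrc, a ligase gene for period proteins, had a range of 0.20. Among 7 tested output genes, 5 were higher and none lower; Pdk4, a kinase gene of fuel choice, stood at 6.35 and 5.24 CPM in libraries 3 and 4, against 4.46 and 2.87 CPM in libraries 1 and 2. Ppara, a nuclear receptor gene, had a range of 0.33 and Ypel2 of 0.32. Among 6 genes that glucocorticoid hormones induce, 3 were higher and none lower. Tsc22d3, the gene of the glucocorticoid-induced leucine zipper, stood at 131 and 125 CPM in libraries 3 and 4, against 89.99 and 76.2 CPM in libraries 1 and 2, and Dusp1, a phosphatase gene that stress also induces, stood at 44.3 and 35.8 CPM in libraries 3 and 4, against 27.1 and 53.5 CPM in libraries 1 and 2. Zbtb16, a zinc finger gene, had a range of 0.42. None of these 20 genes was called by limma (adjusted p = 0.722 for Tsc22d3 and 0.479 for Dusp1).

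**Figure D5:**
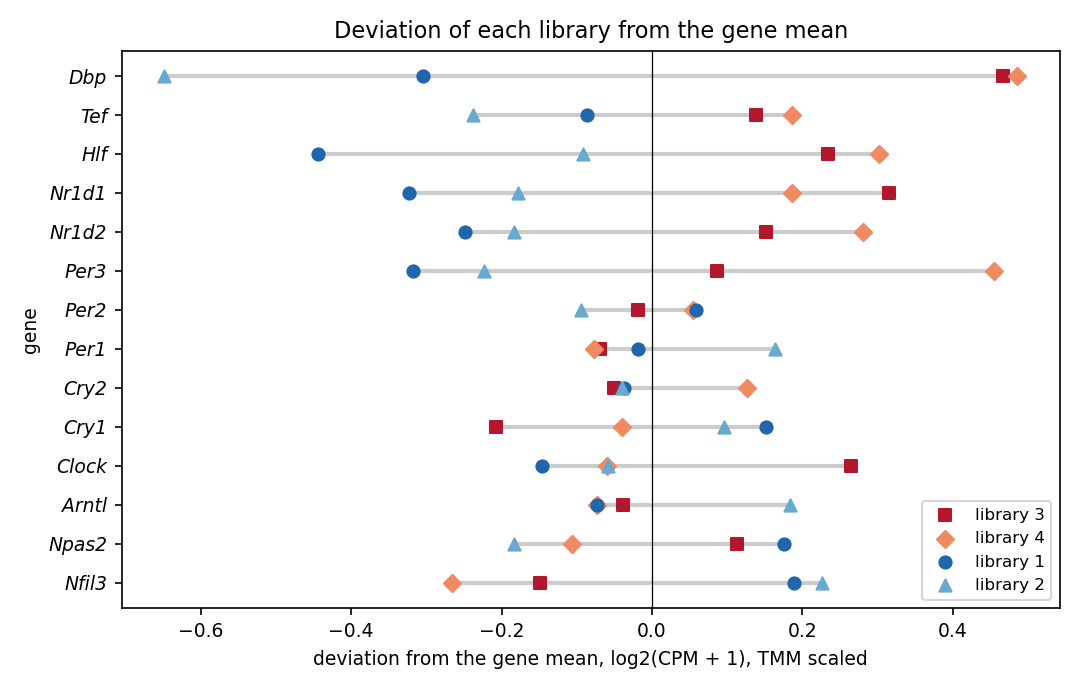
Deviation of each library from the gene mean on the log2(CPM + 1) scale with TMM scaling (horizontal axis) for the 10 clock genes and the partners Hlf, Arntl, Npas2 and Nfil3, with 1 point per library and a grey bar over the range. In Dbp, Tef, Hlf, Nr1d1, Nr1d2 and Per3 the points of libraries 3 and 4 lie right of those of 1 and 2, and in Nfil3, Cry1 and Per1 they lie left.

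Marker genes of several cell types moved with the same pairs of libraries. The 7 skeletal muscle markers summed to 3197 and 5036 CPM in libraries 3 and 4, against 2699 and 2002 CPM in libraries 1 and 2, and 6 of the 7 were higher without overlap by deposited CPM, the scale of all marker counts here, on which 45.6% of all genes were higher and 11.5% lower. The 6 fibroblast markers summed to 6120 and 5426 CPM in libraries 3 and 4, against 3630 and 3224 CPM in libraries 1 and 2, with 6 of 6 higher, and the 4 suprabasal keratinocyte markers to 7887 and 7889 CPM, against 5918 and 4983 CPM, with 4 of 4 higher. The 5 hair shaft markers went the other way, at 1153 and 569 CPM in libraries 3 and 4, against 4332 and 4091 CPM in libraries 1 and 2, with 5 of 5 lower. Basal keratinocyte, T cell and macrophage sums were higher in libraries 3 and 4, with 3 of 5, 2 of 3 and 3 of 4 measured markers higher (a further T cell marker had no value), at 2190 to 2707, 11.1 to 11.5 and 49.1 to 59.4 CPM in libraries 3 and 4, against 1803 to 2048, 5.47 to 6.05 and 44.5 to 47.3 CPM in libraries 1 and 2. The 5 adipocyte and 5 secretory gland markers overlapped in sum. The glands stood at 0.227 and 4702 CPM in libraries 3 and 4, against 7.54 and 31751 CPM in libraries 1 and 2. The gland sum was thus higher in libraries 2 and 4, whose codes end in R, than in libraries 1 and 3. No marker was at 0 in all libraries among those in the table, and the part of these cell types in the clock gene values was not tested.

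The genes most like Dbp were sought among 12069 genes of at least 5 CPM by the root mean square difference of centred log2 values over 4 libraries. The nearest were Igfbp5 (0.0697), a secreted binder of insulin-like growth factors, Adssl1 (0.0790), a purine cycle enzyme of muscle, Mfap2 (0.0797), a microfibril protein, Sgca (0.0813), a sarcoglycan of muscle, and Prr33 (0.0850). The nearest clock gene was Per3, at place 458 with 0.286, then Nr1d1 at 477, Nr1d2 at 552 and Tef at 695, and the partner Hlf at 706. Cry1 stood at place 10620 and Nfil3 at 11486. With 4 libraries, likeness of this kind is a description of their order and spacing only.

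Starts with no gene name also lay around the clock genes. Over the whole table, 20326 of 67319 distinct clusters had no gene name. Within the clock genes or 2000 bp around them there were 13 such clusters, 6 of them on the opposite strand, beside the 43 of the clock genes. The most used lay inside Dbp on the opposite strand (chr7:45706895-45706991) and stood at 3.80 and 2.73 CPM in libraries 3 and 4, against 2.97 and 1.59 CPM in libraries 1 and 2, with 200 tags in all. Those pairs overlapped, unlike those of the most used sense cluster of Dbp. The other 12 held at most 23 tags each over the 4 libraries.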

How the data were processed

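CAGE tags from 4 libraries of 1 group were analysed. Per the labels' protocols, total RNA was column purified and a commercial CAGE kit was used; BWA, HISAT2 and the mm9 build are named, without roles, in the submitters' processing notes, and no source used here gives the clustering step. Coordinates fit GRCm38: 17828 of 17849 gene identifiers were in GENCODE M21, and 99.95% of named clusters lay within 1000 bp of their gene. The authors deposited CPM per cluster. In 100% of values they were whole multiples of 1 tag (tolerance 0.02 tags), so tags were recovered. Tags were summed per gene; 779 genes were left out because 90% or more of their tags lay in clusters that belong to a different gene.

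Levels were tested for spread with limma 3.58.1 (log2(CPM + 1), TMM factors 0.988, 0.931, 1.04 and 1.05, robust trended prior with 3.49 degrees of freedom, one-sided upper F test); edgeR 4.0.16 on recovered tags was an alternative. Promoter ratios used the same test with 0.5 tags added. Both were run on simulated data in which each planted change lay in a single library. That run does not show how well they find differences between pairs of libraries. The members, lists and markers were chosen with earlier results of these data known. All members were described, partners by their range or their place in a ratio, and clusters if they held 5% of a gene. Rorb and Fbxl21 were not analysed here, and Lonrf3 lay below 1 CPM; the values of 1 further gene of these lists are not reported here. One minor Dbp cluster, with 1.13% of its tags, is also listed under Car11.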

Additional observations from a re-analysis of the deposited data

Results flagged for a closer look

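Of 68 sets of 4 values checked, 2 had a library whose gap to the nearest other exceeded Dixon's critical share of the whole range for 4 values, and chance marks about 1 in 20. The ratio of Per3 to Clock was 0.780 in library 4, against 0.477 to 0.480 in the other 3 libraries. Fkbp5, a chaperone gene that glucocorticoids induce, stood at 38.0 CPM in library 3, against 27.9 to 29.3 CPM in the others.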

How the results depend on the processing

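No clock gene passed the test of spread under any alternative run: in 130 refits of single genes the lowest limma or edgeR adjusted p was 0.365. The number of genes called over the whole table, 56 by limma, was 34 with DESeq2 size factors, 104 without scaling, 16 with at least 5 CPM, 35 by edgeR, 10 without the robust prior and 33 without clusters listed under several genes; leaving out 1 library gave 10 (without library 4) to 111 (without library 3). For promoter shares, 22 genes were called by limma, against 4 with clusters joined over gaps of at most 200 bp, 1 with at least 100 tags in the second cluster and 705 by chi-square, which called 3 clock genes; leaving out 1 library gave 4 (without library 2) to 21 (without library 1). The cause of these shifts was not tested. Counting each gene by its top cluster alone, the mean log2 ratio became 0.021 for Nr1d1 over Clock (-1.02 with all clusters) and 0.24 for Per3 over Clock (-0.89), since Clock divides its tags over several clusters; that of Nr1d1 over Arntl was 0.10 with all 4 libraries and between -0.020 (without library 3) and 0.23 (without library 2) with 1 left out. The number of clock genes higher in libraries 3 and 4 was 5 with TMM, 7 without scaling, 7 with totals of distinct clusters and 6 with the top cluster alone, alternatives chosen after seeing the data. No paired analysis was possible because the labels give 1 group.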
